A study of Mus musculus with 3 samples.

Results

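Myeloid transcripts turned up in 74 of the 2836 cell barcodes recovered from a sort for mouse spleen B cells. A barcode was counted as myeloid when it held at least 1 UMI (unique molecular identifier, 1 counted transcript molecule) of 3 or more of 9 genes, namely Lyz2, Fcer1g, Tyrobp, Csf1r, C1qa, C1qc, Vcam1, Hmox1 and Slc40a1. The members were therefore chosen on raw UMI counts of these genes, whatever their hashtag, and their levels of these genes are a description. The other 2762 barcodes were mostly B cells.

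Macrophages of the splenic red pulp engulf aged red cells and recycle their iron. Heme oxygenase 1 (Hmox1) opens the heme ring, ferritin (Fth1 and Ftl1) stores the freed iron and ferroportin (Slc40a1) exports it, while Spic is the transcription factor on which these macrophages depend. They carry the adhesion molecule Vcam1 and make C1q, the recognition protein of the classical complement pathway, whereas monocytes and neutrophils are rich in lysozyme (Lyz2).

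The cells came from the spleens of 3 LDHA-sufficient mice, whose hashtags are labelled WT, and 3 LDHA-deficient mice, labelled KO. Lactate dehydrogenase A (LDHA) turns pyruvate into lactate, the closing step of glycolysis. Each mouse had its own antibody hashtag against CD45 and MHC class I, cells were sorted as viable, positive for a B cell stain and by GL7 (which B cells display after activation and in germinal centres), and all mice shared 1 lane of a droplet kit that reads transcripts from the 5′ end. Transcripts, hashtags and antibody heavy chains were read in 3 libraries from the same droplets. No source used here states the strain, age, immunisation, the promoter or Cre, or the deleted part of Ldha, and whether the deletion reaches myeloid cells is not known from them. The hashtag and heavy chain libraries are labelled as blood progenitors (HSPCs), against the protocols. The gate that would remove myeloid cells is the B cell stain.

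The mouse of a member is read from a tag of 15 bases, and the tags of the 6 mice are shown in lower case because every comparison between mice rests on them.
LDHA-sufficient mouse 1: ctttgtctttgtgag
LDHA-sufficient mouse 2: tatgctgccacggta
LDHA-sufficient mouse 3: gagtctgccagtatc
LDHA-deficient mouse 1: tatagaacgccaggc
LDHA-deficient mouse 2: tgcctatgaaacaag
LDHA-deficient mouse 3: ccgattgtaacagac

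Of the 74 members, 43 carried a single hashtag and 29 carried hashtags of several mice. Another 2 were called negative for every hashtag, though they held 431 and 130 hashtag UMIs. Several hashtags mean that cells, or cells and stray antibody, of different mice shared a droplet, so these members enter no comparison between mice and are described apart. The members held 516912 UMIs, with a median of 4086 per barcode and a range of 1283 to 46689. Single-hashtag members had a median of 3287 UMIs. The comparison set of 1400 single-hashtag B cells (no UMI of any of the 9 genes, and at least 2 of 4 B cell genes) had a median of 3785 UMIs and 7170428 UMIs in all. Levels below are UMIs per 10000 UMIs of the summed barcodes, and they compare 1 gene between sets of barcodes.

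The threshold of 3 genes lies where the counts thin out. The 76 barcodes just outside it, with 2 of the genes, held a median of 2 UMIs of the 9 genes together, and the 16 barcodes just inside, with 3 genes, held a median of 5.5. Tyrobp, an adaptor of activating receptors, was also seen in 409 barcodes that are not members (14.8%), and each of the other 8 genes in between 0.94% and 3.77% of them. The rule also leaves cells out. Of 16 barcodes with 5 or more UMIs of Siglech, a receptor of plasmacytoid dendritic cells, 10 are not members, while all 19 barcodes with 10 or more Lyz2 UMIs and all 5 with 20 or more S100a9 UMIs are.

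The members are not 1 cell type. Sorted by their leading genes after the values were seen, 33 held C1qa or C1qc together with at least 2 of Vcam1, Hmox1 and Slc40a1 (called here the C1q and iron group). Another 16 held 10 or more Lyz2 UMIs (the Lyz2 group), 5 held 20 or more S100a9 UMIs, 6 held 5 or more Siglech UMIs, and 1 met the C1q and iron and the Lyz2 criteria. The remaining 13 met none of these. The Lyz2, S100a9 and Siglech cuts fall in gaps of the counts. Members below the Lyz2 cut reached at most 3 Lyz2 UMIs and those above it started at 11, and the same gap ran from 1 to 37 for S100a9 and from 0 to 6 for Siglech. The C1q and iron criteria ask for 1 UMI per gene and lie in no such gap. A barcode inside held 1 UMI each of C1qa, C1qc, Vcam1 and Hmox1. Another, outside every group, held 6 of C1qa and 5 of C1qc. Since the groups were drawn from these values, differences between them carry no test.

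**Figure D1:**
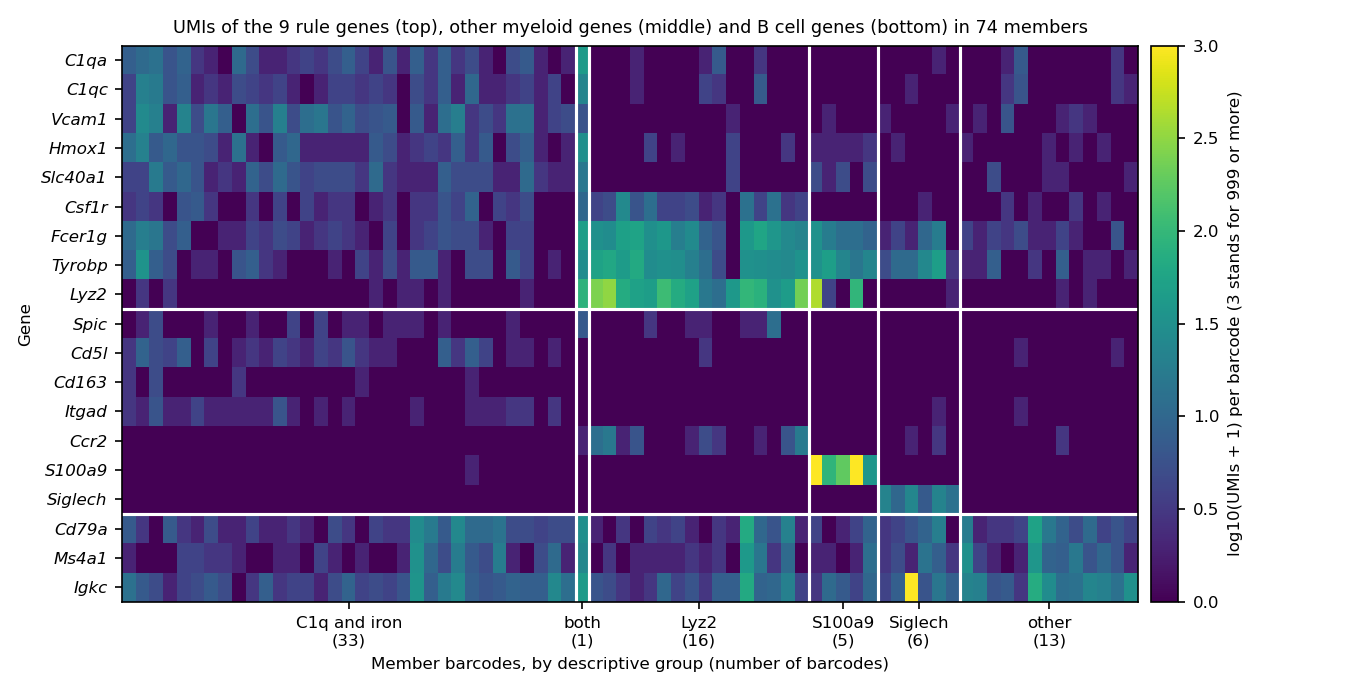
UMIs per barcode, as log10(UMIs + 1), of the 9 rule genes, of other myeloid genes and of B cell genes (rows) in each of the 74 members (columns, by group). The C1q and iron block at the left is dark for Lyz2, and the Lyz2 block is dark for Vcam1, Slc40a1 and mostly for C1qa.

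The label of myeloid cells was checked against markers. The 20 macrophage and red pulp markers used for this include none of the 9 rule genes. A median of 12 were detected per barcode in the C1q and iron group, 8 in the Lyz2 group and 3 in the S100a9 group. The median was 3.5 in the Siglech group and 4 (0 to 10) in the 13 members outside every group, against 1 in B cells. Counting only 7 red pulp markers that the rule did not use, the medians were 4, 1.5, 0 and 0, against 0 in B cells. The 13 members outside every group are mixed. In 3 of them all 3 C1q transcripts were found and 7 had 3 or more of the 20 markers, while 11 held at least 3 of the 4 B cell genes and 7 held a heavy chain, so the label is uncertain for them as a set. The C1q and iron group may be called red pulp macrophage-like as a set from these markers. Its barcodes ranged from 3 to 16 of the 20 markers, where B cells ranged from 0 to 6. Of the 7 red pulp markers they held 1 to 6, where B cells held 0 to 3. For its lowest barcodes the label is uncertain.

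In the 21 single-hashtag barcodes of the C1q and iron group, with a median of 1997 UMIs (1283 to 4418), the genes of iron release and adhesion that define the group were read as follows. Vcam1 ranged from 0 to 26 UMIs per barcode with a median of 6 and stood at 37.95 per 10000, against 0.11 in the Lyz2 group. Hmox1 ranged from 0 to 20 (median 4, 21.31 per 10000 against 0.80), and Slc40a1 from 1 to 16 (median 4, 20.90 against 0.34). Slc40a1 was present in 21 of 21 barcodes, Hmox1 in 20 and Vcam1 in 19. In the whole group of 33, 28 held all 3 transcripts. Each value is low because the barcodes are shallow, and a 0 in such a barcode is not absence of the transcript.

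The subunits of C1q came together. C1qa gave 89 UMIs in 20 of 21 barcodes (18.06 per 10000), C1qc gave 81 in 19 (16.44), and C1qb, which the rule did not use, gave 75 in 18 (15.22, against 0.46 in the Lyz2 group and 0.03 in B cells). All 3 were detected in 25 of the 33 barcodes of the group and in 3 of 16 in the Lyz2 group, where 12 had none. The 3 genes lie side by side on chromosome 4, C1qb at 136880126 to 136886200, C1qc at 136889801 to 136892936 and C1qa at 136895916 to 136898844 (RefSeq, GRCm38.p6, the assembly that mm10 names). Properdin (Cfp), which stabilises the alternative pathway convertase, stood at 10.75 per 10000, against 0.69 in the Lyz2 group. C3 showed the opposite order, at 0.20 against 1.71.

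Lyz2, the first gene of the rule, was nearly missing from this group. It gave 6 UMIs in 4 of 21 single-hashtag barcodes, 26 of all 33 had none, and no barcode of the group had more than 2. In the Lyz2 group it ranged from 11 to 314 per single-hashtag barcode (median 51, 118.31 per 10000 against 1.22). Its close copy Lyz1 gave 1 UMI in all members, and reads that match both copies cannot be placed from these counts. Csf1r, the receptor of the macrophage growth factor CSF1, was alike in both, at 7.31 and 6.97 per 10000. The adaptors Fcer1g and Tyrobp were at 16.03 each in the C1q and iron group and at 32.89 and 39.51 in the Lyz2 group.

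Red pulp genes outside the rule mostly followed the same division. Cd5l, a secreted macrophage protein, ranged from 0 to 8 UMIs per barcode, was detected in 18 of 21 and stood at 10.35 per 10000, against 0.23 in the Lyz2 group and 0.02 in B cells. The integrin Itgad was at 5.28 (15 of 21 barcodes) and at 0 in the Lyz2 group. Spic gave 17 UMIs in 10 of 21 barcodes (3.45 per 10000, against 0.46 and 0.01), with at most 4 in a barcode. It did not divide the groups cleanly. In the Lyz2 group it was in 3 of 11 single-hashtag barcodes and in 3 of 4 with several hashtags, 1 of which held 11 UMIs. The F4/80 gene Adgre1 was at 6.49 against 0.69, and the hemoglobin scavenger receptor Cd163 gave 9 UMIs in 4 barcodes and 0 in the Lyz2 group. Treml4 was close in the groups, at 2.23 and 1.94. Of the 7 red pulp genes that the rule did not use, 7 were higher in the C1q and iron group than in B cells, with a median log2 ratio of 5.39 (0.1 per 10000 added to each level). Over all 32245 gene names, with no filter on counts, 11.2% were higher and the median was 0. Against the Lyz2 group 7 of 7 were higher (median 3.07), where 12.3% of all genes were and the median was 0.

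General macrophage genes were on in both groups, at different levels. Of the 15 genes of the macrophage list outside the rule, 14 were higher in the C1q and iron group than in B cells (median log2 ratio 5.28), and 14 were in the Lyz2 group (2.65, where 13.2% of all genes were higher and the median was 0). The lipid carrier Apoe stood at 16.64 per 10000 in the C1q and iron group, 6.17 in the Lyz2 group and 1.75 in B cells. Mpeg1, a pore-forming protein of phagosomes, was at 11.16 and 9.36. The receptor tyrosine kinase Axl, which binds dying cells, was at 10.75 against 1.14, and the mannose receptor Mrc1 was at 9.54 against 0. The transcription factor Maf was on in both (5.48 against 2.63). Of the marginal zone macrophage genes, Marco stood at 3.25 in 6 of 21 barcodes, Siglec1 gave 3 UMIs, Nr1h3 was at 1.01, and the defining marker Cd209b was at 0 in all 74 members.

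The genes of heme and iron handling were given whole, since iron recycling is what red pulp macrophages are known for. Of 20 such genes outside the rule, 16 were higher in the C1q and iron group than in B cells (median log2 ratio 1.65), 13 were in the Lyz2 group (0.51), and 13 were higher in the C1q and iron group than in the Lyz2 group (0.66). Ferritin was high in both kinds of barcodes. The heavy subunit Fth1 ranged from 1 to 48 UMIs per barcode (median 6) in the C1q and iron group and stood at 59.05 per 10000, against 48.42 in the Lyz2 group and 12.42 in B cells. The light subunit Ftl1 stood at 48.09, against 70.81 and 5.98, so for this gene the Lyz2 group was the higher one.

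Transferrin (Trf), the iron carrier of plasma, set the groups apart most clearly among these. It gave 67 UMIs in 17 of 21 barcodes of the C1q and iron group and stood at 13.60 per 10000, against 1 UMI (0.11) in the Lyz2 group and 0.03 in B cells. Ncoa4, which delivers ferritin to lysosomes, was at 3.04 against 0.57 in the Lyz2 group and 0.36 in B cells. Smaller differences were seen for the biliverdin reductases Blvrb (3.45, 1.48 and 2.19) and Blvra (1.42, 0.46 and 0.19), and for the heme transporter Slc48a1 (1.22, 0.23 and 0.15), in the same order of sets.

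Other iron genes were close in both groups, lower in the C1q and iron group, or too scarce to place. Lrp1, a receptor that takes up heme bound to hemopexin, was at 4.87 and 5.14 per 10000, and 0.0028 in B cells. The lysosomal metal transporter Slc11a1 was at 1.83 and 1.71. Nfe2l2, a stress-responsive activator of Hmox1, gave 1 UMI (0.20) against 3.08, and Bach1, a repressor of Hmox1, was at 1.01 against 1.60. The iron chaperones Pcbp1 (2.23 and 1.83) and Pcbp2 (1.83 and 2.40) were near their B cell levels of 2.01 and 2.29. The iron regulatory proteins gave 4 UMIs for Ireb2 and 0 for Aco1, the transferrin receptor Tfrc gave 3, Steap3 and Cp gave 1 each, and Slc11a2 gave 0. A count of 0 in these 21 barcodes allows up to 3 UMIs, or 0.609 per 10000.

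**Figure D2:**
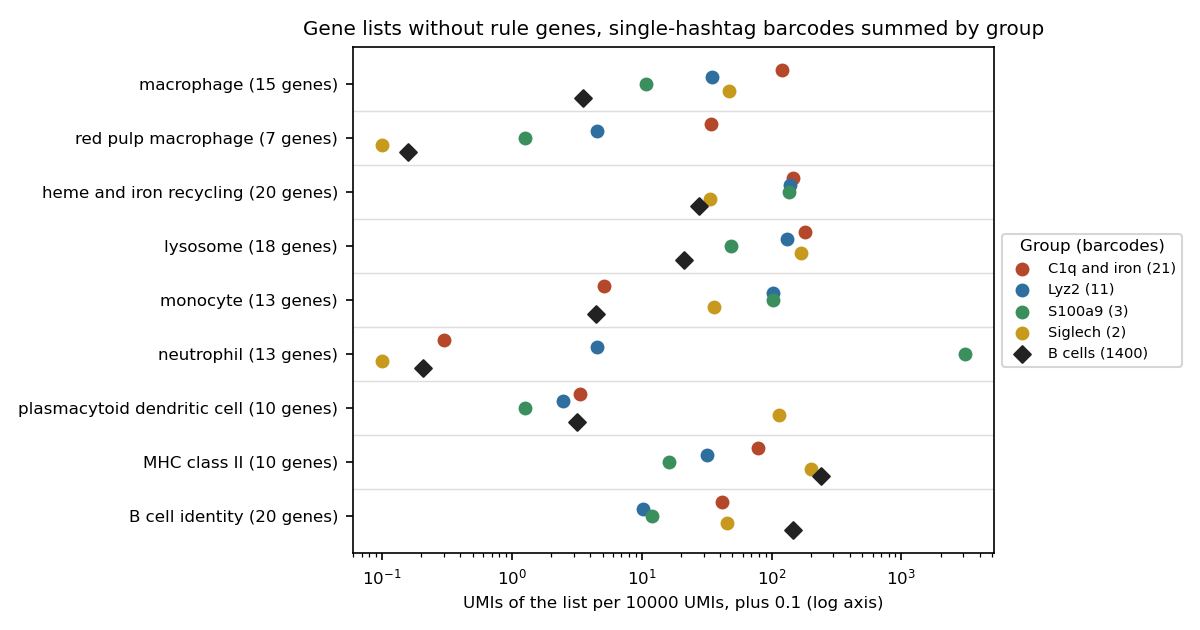
Summed level of each gene list, rule genes left out, in UMIs per 10000 on a log axis, for the single-hashtag members of each group and for B cells. The red pulp list stands at 33.9 in the C1q and iron group and 4.45 in the Lyz2 group, and the monocyte list at 5.07 and 102.1.

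The lysosome and the uptake of dying cells were prominent. Of 18 lysosomal genes, 17 were higher in the C1q and iron group than in B cells (median log2 ratio 2.36), and 17 in the Lyz2 group (2.24). The cathepsin Ctsb stood at 57.83 per 10000 against 17.70 in the Lyz2 group and 0.80 in B cells, while prosaposin (Psap) was equal, at 50.53 and 50.93, and 4.41 in B cells. Cathepsin S (Ctss) was at 10.15 and 13.13. For uptake, 13 of 17 genes were higher in the C1q and iron group than in B cells (median 2.34) and 12 of 17 in the Lyz2 group (1.72). Sirpa, the receptor of the CD47 signal that spares intact red cells, was at 10.55 against 3.77, and Mertk gave 12 UMIs in 8 barcodes against 1 UMI. The integrin Itgam had the reverse order, at 0.20 against 5.82.

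Red cell transcripts were found with the C1q and iron group. Hemoglobin UMIs were present in 13 of its 21 single-hashtag barcodes (61.9%, exact Clopper-Pearson 95% interval 38.4% to 81.9%), with a median of 1 and at most 15 UMIs. They were present in 1 of 11 barcodes of the Lyz2 group and in 167 of 1400 B cells (11.9%, 10.3% to 13.7%). With every barcode thinned to 1200 UMIs the shares were 52.4%, 0% and 4.37%, with 4 B cells too shallow to count. By mouse, 7 of 10 barcodes of LDHA-sufficient mouse 3 and 4 of 9 of LDHA-deficient mouse 1 held hemoglobin, where the B cells of these mice held it in 14.3% and 10.2%. The erythroid markers Alas2 and Slc4a1 were at 0 in all 74 members. Free RNA gives single UMIs in B cells too, and its part in the result was not tested. Intervals here and below cover counting error only.

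The Lyz2 group carried the monocyte genes. In its 11 single-hashtag barcodes, with a median of 8613 UMIs, 13 of 13 monocyte genes were higher than in B cells (median log2 ratio 5.23), whereas 4 of 13 were in the C1q and iron group (median 0), which was above the Lyz2 group for 1 of 13 (Cd300e, by 1.42 against 1.37). Plac8 stood at 25.24 per 10000 against 2.03 in the C1q and iron group and 3.89 in B cells. Ly6c2, a marker of classical monocytes, was at 10.96 against 0.61 and ranged widely, with UMIs in 6 of 11 barcodes. Chil3 (6.40) and Ifitm6 (5.37) were in 7 and 8 of 11. The chemokine receptor Ccr2 ranged from 0 to 15 UMIs and was found in 7 of 11 barcodes, against 0 of 21. Markers of the non-classical kind were there too, with Ace at 5.14 and Cx3cr1 at 3.65, in 5 and 6 barcodes.

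Secreted factors and transcription factors also divided the groups. In chemokines and cytokines, 11 of 15 genes were higher in the Lyz2 group than in B cells (median log2 ratio 1.64) and 4 of 15 in the C1q and iron group (-0.02). Ccl6 stood at 10.85 per 10000 against 0.61. Ccl24 at 11.42 came from 2 barcodes, and Tgfb1 was at 5.71 and 4.26. Il1rn was highest in the S100a9 group (12.33). Of 13 myeloid transcription factors, 10 were higher in the Lyz2 group than in B cells (2.48) and 8 in the C1q and iron group (0.85). Cebpb was at 10.28 against 0.20, Spi1, the gene of PU.1, at 7.88 against 1.62, and Irf8 at 1.71 and 2.84.

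Lists of lipid handling, complement and Fc receptors gave a mixed picture. Lipid genes were higher than in B cells for 8 of 12 in the C1q and iron group (median log2 ratio 1.89) and 11 of 12 in the Lyz2 group (2.02). Lipoprotein lipase (Lpl) was at 2.64 and 5.25 per 10000, the cholesterol-esterifying enzyme Soat1 at 1.01 and 2.86, and the lipid droplet protein Plin2 at 0.41 and 3.54. Complement genes outside the rule were higher than in B cells for 4 of 7 and 7 of 7. Fc receptor and signalling genes outside the rule were higher for 5 of 8 in the C1q and iron group (1.54) and 7 of 8 in the Lyz2 group (3.23). Among these, the inhibitory receptors Lilrb4a (0.20 and 4.34) and Fcgr2b (0.20 and 1.83) were low in the C1q and iron group, and the kinase Syk was at 2.03 and 1.71, under its B cell level of 4.12.

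The S100a9 group held neutrophil transcripts in very high amounts. Its 5 barcodes ranged from 37 to 2307 UMIs of S100a9 and from 47 to 2744 of S100a8, the 2 subunits of calprotectin. The neutrophil list took 3097 of 10000 UMIs in the 3 single-hashtag barcodes summed, against 4.45 in the Lyz2 group and 0.107 in B cells. This level rests mostly on 1 barcode with 7569 UMIs of the list, where the median of the 3 was 246. Granule genes were confined to few barcodes, since Ngp (1413 UMIs), Camp (925) and Ltf (540) came from 2 members each, and Mpo was at 0 in all members. Lcn2 gave 585 UMIs in 4 members. Csf1r, C1qa and C1qc were at 0 in all 5 barcodes of this group, and Hmox1 was in 5 and Slc40a1 in 4, so these met the rule through Fcer1g, Tyrobp and the iron genes.

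The Siglech group carried plasmacytoid dendritic cell genes. Its 6 barcodes held 6 to 23 Siglech UMIs, and the plasmacytoid dendritic cell list stood at 114.3 per 10000 in its 2 single-hashtag barcodes against 3.10 in B cells. Tcf4 (17.97), Bst2 (26.13), Klk1 (20.42) and Irf8 (32.67) led. Kdr, from the stromal list, was also at 14.70 there. Cd4 stood at 13.07 there, whereas Cd3e, Trac, Trbc1 and Trbc2 were at 0 in all 74 members. Of 11 conventional dendritic cell genes, 5 were higher in the Lyz2 group than in B cells, led by Cst3 (31.06 per 10000). Itgax was at 1.37 there, Naaa at 1.71, and Clec10a gave 16 UMIs in all members, while Zbtb46, Xcr1 and Clec4a4 were at 0 in all members.

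Other cell types left little trace. In the 74 members 8 of 10 basophil, mast cell and eosinophil genes, 6 of 7 NK cell genes, 4 of 5 platelet genes and 8 of 12 stromal and endothelial genes were at 0. The summed T cell list was at 0.203 per 10000 in the C1q and iron group, 0 in the Lyz2 group and 0.364 in B cells. Dissociation stress genes, early-response and heat shock genes known from warm tissue digestion, were at 1.01 in the C1q and iron group, 4.45 in the Lyz2 group, 8.09 in the S100a9 group and 1.48 in B cells, led by Junb (48 UMIs in all members), Egr1 (19), Dusp1 (17) and Jun (16).

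Over the single-hashtag members as a whole, the genes with the largest ratio to B cells among those found in at least 20% of members were Ifitm6, Ifitm2, Hp, Ccl6, Lpl, Lrp1, Tgfbi, Gm36161, Adgre4 and Pilra. Ccl6 was 842-fold higher, and the other 9 are lower bounds against a floor of 3 UMIs in the B cells, from at least 561-fold higher (Pilra) to at least 1640-fold higher (Ifitm6). Without the S100a9 barcode of LDHA-deficient mouse 1, which holds 103 of the 152 Ifitm6 UMIs, the bound for Ifitm6 is 573-fold. Here 15.8% of all genes were higher in members than in B cells. Of the single-hashtag C1q and iron barcodes, 0 of 21 held Ifitm6 or Hp, 1 held Ifitm2 and 11 held Adgre4, whereas Ifitm6, Hp and Ifitm2 were in 8, 9 and 9 of the 11 Lyz2 barcodes.

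One barcode carried both programmes. This member of LDHA-sufficient mouse 1 held 23780 UMIs, with 85 of Lyz2, 43 of C1qa, 30 of Hmox1, 15 of Slc40a1, 679 of Fth1 and 321 of Ftl1. It had a single hashtag and also 29 Cd79a UMIs. A droplet with more than 1 cell of a mouse cannot be seen by hashtag.

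B cell transcripts were in nearly every member, at levels that differed with the number of hashtags. In the C1q and iron group, Cd79a, a signalling chain of the B cell receptor, had a median of 2 UMIs (0 to 6) in single-hashtag barcodes and of 8 (3 to 27) in those with several hashtags. In the Lyz2 group the medians were 1 (0 to 3) and 14.5 (5 to 67). B cells had a median of 11 (quartiles 7 and 17), and 90.9% had 4 or more. All 11 single-hashtag barcodes of the Lyz2 group were thus below 4, although their depth exceeded that of B cells. The hashtags took no part in the rule, and the barcodes with several overlapped with B cells in Cd79a.

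**Figure D3:**
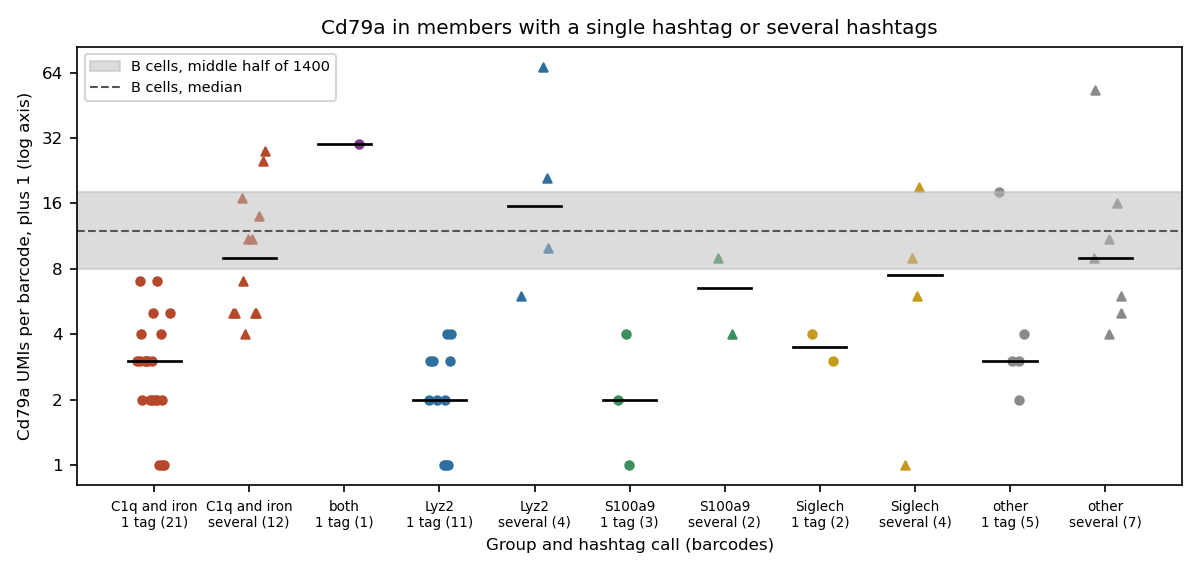
Cd79a UMIs per barcode for members of each group with a single hashtag and with several, beside the B cells, where each point is a barcode and bars mark medians. Single-hashtag barcodes of the Lyz2 group lie at 0 to 3 UMIs and those with several hashtags at 5 to 67.

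The low level in single-hashtag members can be set beside that in T cells, which make no Cd79a. In 3 single-hashtag barcodes with at least 3 of 6 T cell genes (median 3266 UMIs), Cd79a was at 1 to 2 UMIs (mean 1.33), Igkc at 0 to 4 and Ms4a1 at 0 to 1. So 18 of 21 C1q and iron barcodes (median depth 1997 UMIs) and 8 of 11 Lyz2 barcodes (8613 UMIs) with a Cd79a UMI are read against 3 of 3 T cell barcodes with one. These are raw counts at unlike depths and from few T cell barcodes, so they do not place either group at the T cell level. Per 10000 UMIs, Cd79a was at 8.93 in the C1q and iron group, 1.71 in the Lyz2 group, 1.54 in the S100a9 group and 25.55 in B cells. Igkc, the kappa light chain constant region, had a median of 4 UMIs in the single-hashtag barcodes of both the C1q and iron and the Lyz2 group, and 73 of 74 members had at least 1.

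Single genes of the B cell programme kept to this order per 10000 UMIs. All 20 B cell identity genes were lower in single-hashtag members than in B cells (median log2 ratio -2.21), and 0 of 12 antibody constant regions were higher (-1.57). Per 10000 UMIs, 19 of the 20 identity genes were higher in the C1q and iron group than in the Lyz2 group. The depths differ, at medians of 1997 and 8613 UMIs. Per barcode, in the same order, the identity list had means of 9.76 and 8.09 UMIs. The antibody constant regions had means of 9.86 and 12.18, the reverse order. Ms4a1 (CD20) stood at 4.06 and 1.26 per 10000 against 14.96 in B cells, Ly6d at 2.84 and 1.03 against 13.61, and Cd79b at 3.65 and 0.69 against 13.56. Ighm was at 9.54 and 4.57 against 34.07, Iglc2 at 3.45 and 1.26 against 9.33, and Iglc3 at 3.65 and 1.37 against 7.77. The ratio of Igkc to Cd79a was 1.93 in the C1q and iron group, 3.13 in the Lyz2 group and 1.20 in B cells, and that of Ms4a1 to Cd79a was 0.455, 0.733 and 0.586. One Siglech barcode with several hashtags held 2756 UMIs of Igkc, 3301 of Ighm and 368 of Jchain, which encodes the joining chain of secreted antibody.

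Antigen presentation differed among the groups. MHC class II genes were lower than in B cells for 10 of 10 in the C1q and iron group (median log2 ratio -1.69) and in the Lyz2 group (-2.74). Per barcode the list had means of 18.4 and 25.1 UMIs in these groups, the reverse of their order per 10000 UMIs, against 124 in B cells. The invariant chain Cd74 stood at 42.21 and 15.30 per 10000 against 133.91 in B cells, with 94.73 in the Siglech group. The whole list was at 200.1 in single-hashtag Siglech barcodes and at 325.5 in the barcode with both programmes, against 242.4 in B cells. In T cell barcodes Cd74 had a mean of 9.33 UMIs, beside means of 9.90 in the C1q and iron group and 12.18 in the Lyz2 group. These are raw counts at unlike median depths of 3266, 1997 and 8613 UMIs. H2-Aa was at 14.00 and 6.62 against 35.13, H2-Eb1 at 7.91 and 2.74 against 28.32, and H2-Ab1 at 7.91 and 4.34 against 26.41. Of 8 plasma cell genes, 1 was higher than in B cells in each of these groups, and Xbp1 was at 1.83 and 2.51 against 0.92. Jchain was at 3.04 and 0.91 against 10.88, Mzb1 at 1.83 and 0.34 against 5.49, and Prdm1 at 0 in all members. Of 8 germinal centre genes, 0 were higher in the C1q and iron group and 2 in the Lyz2 group, where Bcl6 was at 1.71 against 0.90.

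By mouse, the B cell identity list in single-hashtag members stood at 41.8, 8.75 and 32.2 per 10000 in LDHA-sufficient mice 1 to 3 and at 31.9, 18.4 and 82.1 in LDHA-deficient mice 1 to 3. The mean was 35.9 ± 25.5 (SD, n = 6), against 147 ± 13.5 in the B cells of the same mice. With 2 or more rule genes as the criterion the mean in members was 71.7. The ranges by mouse did not overlap under the rule of 3, and no test is given because the B cells were chosen on B cell genes. The heme and iron list outside the rule stood at 152.8 ± 147.1 in members and 27.3 ± 2.20 in B cells, with LDHA-sufficient mouse 1 at 442.3 and a mean of 94.9 without it. In LDHA-deficient mouse 3 members were at 27.9 and B cells at 25.6, close to each other.

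Several hashtags were found in 29 of 74 members (39.2%, exact Clopper-Pearson 28.04% to 51.2%) and in 791 of 2757 other barcodes with hashtag counts (28.7%, 27.0% to 30.4%). The intervals overlap. In 20 of the 29 members the highest pair of hashtags came from mice of both genotypes and in 9 from mice of the same genotype. At least 3 of the 4 B cell genes were in 28 of these 29, and in 18 of 43 single-hashtag members.

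Heavy chains offer a readout that the rule did not use. A contig was found in 4 of 43 single-hashtag members (9.30%, 2.59% to 22.1%) and in 881 of 1400 B cells (62.9%, 60.3% to 65.5%). By mouse it was found in 0 of 3, 0 of 5 and 0 of 17 members of the LDHA-sufficient mice and in 2 of 12, 0 of 4 and 2 of 2 of the LDHA-deficient mice. The B cells of the same mice had one in 64.1%, 64.5%, 69.2%, 57.2%, 64.2% and 56%. The share was lower in members than in B cells in 5 of 6 mice, by 43.1 percentage points on average (SD 43.9, n = 6), and an exact two-sided sign-flip permutation test over the mice gave p = 0.0938 (smallest possible 0.0313), or 0.2 adjusted over 4 tests of this kind. Without LDHA-deficient mouse 3 and its 2 members, the mean difference was -60.5 points. In members with several hashtags the share was 16 of 29 (55.2%), near the 50.7% of other barcodes with several.

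The junctions of the 4 contigs in single-hashtag members are shown, since they are B cell receptor transcripts in barcodes that met the rule. Capitals are not used, and each runs from the codon of the conserved cysteine to that of the tryptophan.
C1q and iron, LDHA-deficient mouse 3: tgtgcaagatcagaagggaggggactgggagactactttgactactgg
C1q and iron, LDHA-deficient mouse 1: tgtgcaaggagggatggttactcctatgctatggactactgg
no group, LDHA-deficient mouse 1: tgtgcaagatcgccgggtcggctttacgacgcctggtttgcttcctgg
no group, LDHA-deficient mouse 3: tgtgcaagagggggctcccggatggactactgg

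The first, an IgD contig of IGHV1-9 and IGHJ2, had 2 UMIs, and the second, an IgM contig of IGHV1-66 and IGHJ4, had 8, where contigs of B cells had a median of 12. The third, an IgA contig of IGHV1-42 and IGHJ3 with 68 UMIs, was shared by 191 barcodes of the gene count matrix, 2 of them members. The other of these members was called negative for every hashtag. The last, an IgM contig of IGHV1-52 and IGHJ4, had 106 UMIs. The IGHV1-42 and IGHV1-52 contigs sit in barcodes outside every myeloid group. Both had more UMIs than the contigs of the C1q and iron group. All 4 contigs lie within the range of B cell contigs (1 to 4336 UMIs), which is too wide to show whether they are alike. The junctions other than the IgA one were found in 1 barcode each.

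Hashtag UMIs of members lay on either side of those of B cells. The log2 ratio of the median hashtag UMIs of members to those of B cells was 0.67, -0.55 and 0.21 in LDHA-sufficient mice 1 to 3 and -0.54, -0.14 and 0.50 in LDHA-deficient mice 1 to 3. The mean was 0.03 (SD 0.52, n = 6), with 3 mice above 0 and 3 below, and the exact two-sided sign-flip permutation test gave p = 0.906 (adjusted 0.906).

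Single-hashtag members were unevenly spread over the mice. They made up 3 of 323 barcodes (0.929%), 5 of 335 (1.49%) and 17 of 302 (5.63%) in LDHA-sufficient mice 1 to 3, and 12 of 288 (4.17%), 4 of 367 (1.09%) and 2 of 241 (0.830%) in LDHA-deficient mice 1 to 3. One mouse of each genotype stood high, and the genotypes overlapped. The means were 2.68% ± 2.57 and 2.03% ± 1.86 (SD, n = 3 each). An exact two-sided permutation test gave p = 0.6 (adjusted 0.8, smallest possible raw p 0.1), and without LDHA-sufficient mouse 3 the sign of the difference turned. The sort can set these shares.

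The excess of both high mice was in the C1q and iron group. This group had 0, 1 and 10 single-hashtag barcodes in the LDHA-sufficient mice and 9, 0 and 1 in the LDHA-deficient mice. The Lyz2 group had 1, 4 and 3 against 0, 3 and 0, the S100a9 group 1, 0 and 0 against 1, 1 and 0, and the Siglech group 0, 0 and 2 against 0. A sum over the members of a mouse therefore mixes cell types in different shares.

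**Figure D4:**
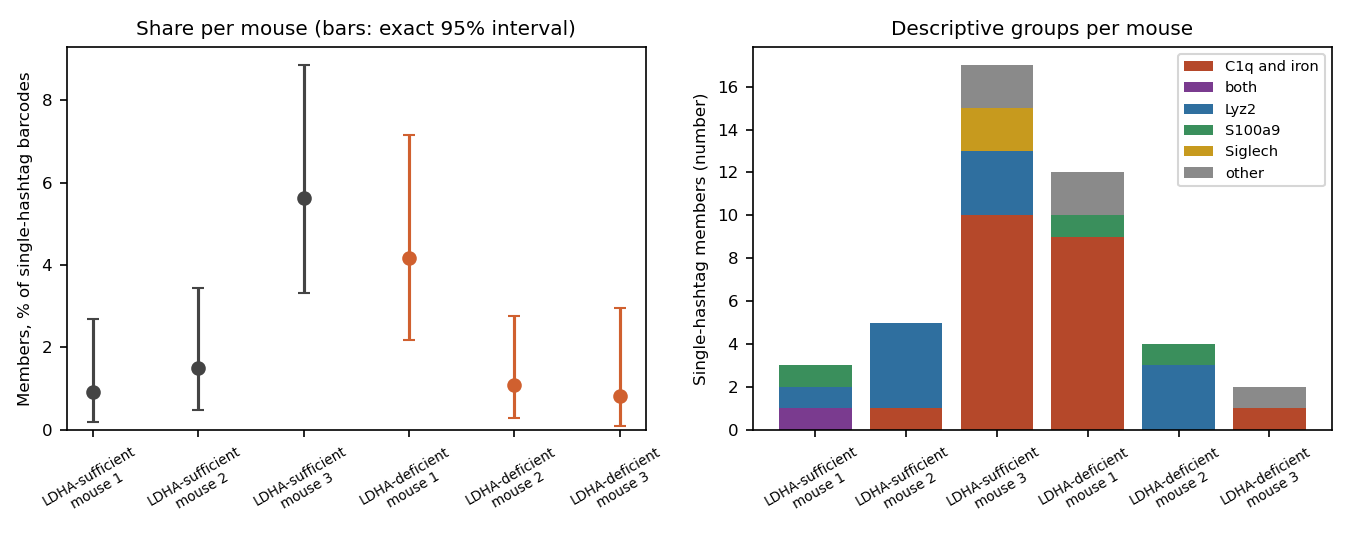
Single-hashtag members per mouse, stacked by group as counts in 1 panel and as percent of the mouse's single-hashtag barcodes with exact 95% intervals in the other. LDHA-sufficient mouse 3 (5.63%) and LDHA-deficient mouse 1 (4.17%) stand above the other 4 mice (0.830% to 1.49%).

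Within the C1q and iron group, LDHA-sufficient mouse 3 and LDHA-deficient mouse 1 could be set side by side, as 1 mouse each and so with no test. Vcam1 stood at 29.45 per 10000 in the first (median 5 UMIs, 0 to 26) and 41.97 in the second (median 7, 0 to 21), and Slc40a1 at 15.97 and 25.52. Hmox1 had the other order, at 26.97 (median 7.5, 0 to 20) and 12.48 (median 1, 1 to 6), as did Fth1, at 81.27 (median 27.5 UMIs) and 33.46 (median 6). The ranges over barcodes overlapped for each of these genes.

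The targeted gene was read in members first, with the B cells beside it. In members Ldha stood at 1.11, 2.53 and 1.81 per 10000 in LDHA-sufficient mice 1 to 3 (4, 11 and 12 UMIs) and at 1.57, 2.04 and 0 in LDHA-deficient mice 1 to 3 (6, 4 and 0 UMIs). The 0 rests on 17896 UMIs and allows up to 1.68 per 10000. The genotypes overlapped. In B cells Ldha stood at 2.17, 2.35 and 1.41 (LDHA-sufficient 1 to 3) against 0.451, 0.457 and 0.638 (LDHA-deficient 1 to 3), without overlap (exact permutation p = 0.1, the smallest that 3 against 3 allow, adjusted 0.2). In LDHA-deficient mouse 1, 5 of the 6 UMIs lay in the S100a9 barcode of 17015 UMIs. Without that barcode the level was 1 UMI in 21247, or 0.471 per 10000, beside 0.451 in its B cells. A level from 1 UMI is too uncertain to be placed with the B cells of either genotype. In LDHA-deficient mouse 2 the 4 UMIs give a 95% Poisson interval of 0.556 to 5.23, which covers counting error only.

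**Figure D5:**
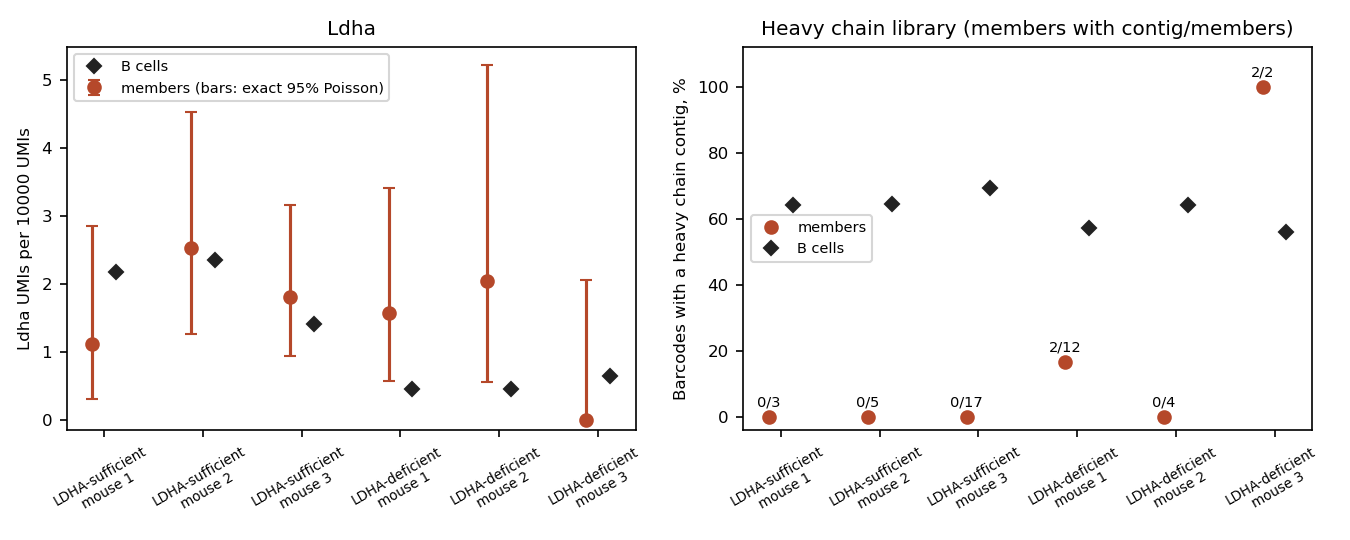
Ldha in UMIs per 10000 (left) and percent of barcodes with a heavy chain (right) in the members and the B cells of each mouse. Ldha in B cells lies at 1.41 or above in LDHA-sufficient and at 0.638 or below in LDHA-deficient mice, while in members the genotypes overlap.

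The groups of members held different amounts of Ldha. In the Lyz2 group it was at 2.86 per 10000 in LDHA-sufficient mice (21 UMIs, 95% Poisson interval 1.77 to 4.36). It was at 2.85 in LDHA-deficient mouse 2 (4 UMIs, 0.778 to 7.31), the only LDHA-deficient mouse with single-hashtag barcodes of this group. Ldha was present in 11 of 11 barcodes of the Lyz2 group. In the C1q and iron group it was at 1.00 in LDHA-sufficient mice (3 UMIs, 0.206 to 2.92) and 0.518 in LDHA-deficient mice (1 UMI, 0.0131 to 2.89). Barcodes are pooled here and are not replicates of a genotype. The S100a9 group had 5 UMIs in LDHA-deficient mice (2.21) and 0 in the single LDHA-sufficient barcode. The intervals are wide and overlap in the Lyz2 and the C1q and iron groups. The glycolysis and lactate list, Ldha included, had 13 of 19 genes higher in the Lyz2 group than in B cells (median log2 ratio 0.72) and 8 of 19 in the C1q and iron group (-0.06). Gapdh was at 11.08 and 8.73 per 10000, Aldoa at 4.57 and 2.23, Pkm at 5.37 and 1.42, and Gpi1 at 2.63 and 1.22.

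The genotypes were compared over all genes in the single-hashtag members, summed per mouse. A minimum of 5 members left LDHA-sufficient mice 2 and 3 against LDHA-deficient mouse 1, so the spread comes from the first pair alone, and genotype cannot be told apart from that 1 mouse. Of 875 genes tested by edgeR's quasi-likelihood test, 42 (4.80%) had a Benjamini-Hochberg adjusted p under 0.05, with 32 (3.66%) higher and 10 (1.14%) lower in the LDHA-deficient mouse. With all 6 mice (a minimum of 2 members, chosen after seeing the data), edgeR called 0 of 478 genes (0%), 20 had an unadjusted p under 0.05, and DESeq2 called 0 with 18 at that level. Ldha gave a log2 difference of 0.17 in the fit of 3 mice (SE 1.03, edgeR adjusted p = 0.994). It was below the filter with all 6 mice, and without that filter gave -0.77, the opposite sign, so these counts set no direction.

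Most of the higher genes came from 1 barcode. In 24 of the 32, at least 50% of the LDHA-deficient UMIs lay in a single barcode, 21 of them in the S100a9 barcode of LDHA-deficient mouse 1 (17015 UMIs). Ngp had 0, 0 and 0 UMIs in LDHA-sufficient mice 1 to 3 and 925, 0 and 0 in the LDHA-deficient mice, Camp 0, 0 and 0 against 700, 0 and 0, and Ltf 0, 0 and 0 against 365, 0 and 0. Another 3 lay in an IgA barcode of the same mouse, with 34 Igha UMIs. The 10 lower genes are led by transcripts of the Lyz2 group, of which this mouse had no single-hashtag barcode. Fn1 had 3, 86 and 49 UMIs against 0, 0 and 0, S100a4 20, 57 and 18 against 0, 6 and 0, and Plac8 45, 84 and 81 against 5, 26 and 6. The others were Ahnak, Cst3, Ccl6, Adgre5, Fmnl1, Ms4a6c and Crip1.

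Slc40a1 and Vcam1, which belong to the rule, were among the 32, and their p-values are not given because members were chosen on them. Slc40a1 had 19, 10 and 45 UMIs in LDHA-sufficient mice 1 to 3 and 53, 4 and 3 in their LDHA-deficient counterparts. Vcam1 had 5, 19 and 89 UMIs against 75, 2 and 11, so the genotypes overlapped for both. The number of barcodes of this group moved with both, at 1 and 10 in the LDHA-sufficient mice of the fit and 9 in the LDHA-deficient mouse, and the deficient arm is 1 mouse. The part of this mixture in the result was not tested.

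A further fit asked whether the effect of genotype was the same in members as in B cells, blocking on the mouse. Of 7115 genes, 20 (0.281%) passed the adjusted threshold in edgeR, 14 (0.197%) more positive and 6 (0.0843%) more negative in members, and DESeq2 called 0. In 13 of the 14 at least 50% of the UMIs of the higher genotype were in 1 barcode, and 11 of these lay in 1 barcode of LDHA-deficient mouse 3 with 16224 UMIs, 42 of Mki67, 44 of Top2a, 17 of Cd79a, 100 of Ighm and 5 of the 9 rule genes together. That barcode has the transcripts of a dividing B cell and holds the IGHV1-52 heavy chain above. The genotype effect in B cells enters each difference too, and its part was not tested. For Ldha the difference of the effects was 1.15 (SE 0.84, edgeR adjusted p = 0.874). With 1 mouse left out at a time the count of 20 became 7, 2 and 8 without LDHA-sufficient mouse 1, 2 and 3, and 24, 37 and 24 without LDHA-deficient mouse 1, 2 and 3. The count was no lower without mouse 3, which holds that barcode.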

How the data were processed

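Gene expression was deposited by the authors as UMI counts per gene and barcode (2836 barcodes, 32285 genes), and hashtags as UMI counts of 2831 barcodes. The submitters' processing notes name Cell Ranger 6.0.0, Seurat 4.2.1 and mm10. The matrix header gives Cell Ranger 6.0.2. Heavy chains were deposited as a contig table, with the V identity as a fraction and junction lengths and clone numbers as other values, per the file headers. The 3 libraries share barcodes because they come from the same droplets.

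HTODemux of Seurat 5.3.0, at a positive quantile of 0.99, assigned barcodes to hashtags. Each mouse is a replicate, and hashtag numbers pair no mice. The rule was applied to raw counts without a cell filter, doublets were kept and described by hashtag, and no doublet caller was run. Members, gene lists (28) and groups were chosen with earlier results of these data known. Named are Ldha, the rule genes, all iron genes, for other lists the 4 genes with most UMIs in members and defining genes at 0, the 10 largest ratios, and the largest called changes; a gene named beyond these was chosen after its values were seen. Counts were summed per mouse and tested with edgeR 4.0.16 (R 4.3.3; TMM, filterByExpr, robust quasi-likelihood, adjusted p under 0.05), with DESeq2 1.42.0 as an alternative, and tried on simulated counts first. Single values per mouse were tested by exact permutation. Intervals are exact (95%), and a count of 0 allows up to 3. Without strand or length information, levels were not compared between genes. Results that name a few further genes are not reported here.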

Additional observations from a re-analysis of the deposited data

Results flagged for a closer look

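Among 16 sets of 6 mice, 1 mouse stood far from the others in 4, where chance gives about 5% of sets. The heavy chain share of members minus that of B cells was 44 percentage points in LDHA-deficient mouse 3, from 2 members. The heme and iron list in members was 442.3 per 10000 in LDHA-sufficient mouse 1, from 3 members, 1 of them the barcode with both programmes. The red cell list was 8.29 per 10000 in the members of LDHA-sufficient mouse 3 and 24.4 in its B cells, where a single barcode held 2521 hemoglobin UMIs.

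The effect of genotype differed between members and B cells for 20 genes in edgeR's test of the difference. The log2 differences of the effects were 3.59 for Mki67, 4.09 for Top2a and 5.07 for Igha, and -1.64 for Tmsb10 and -2.33 for Crip1. In members, Mki67 and Top2a lay mostly in 1 barcode of LDHA-deficient mouse 3, with 42 of 44 and 44 of 46 LDHA-deficient UMIs. Igha had 34 of 44 LDHA-deficient member UMIs in 1 barcode of LDHA-deficient mouse 1. The B cells enter these differences too. Summed over the B cells of each mouse, Mki67 had 1585, 1394 and 380 UMIs against 170, 127 and 258. Top2a had 890, 723 and 247 against 143, 64 and 126, and Igha 4339, 278 and 3904 against 318, 255 and 251. The part of the B cells in the log2 values was not tested. Tmsb10 and Crip1, at 135, 491 and 272 against 67, 73 and 20 UMIs and at 51, 114 and 85 against 13, 6 and 6, did not overlap between the genotypes in UMIs summed over the members of a mouse, which differ in number and kind. Single-hashtag Lyz2 barcodes numbered 1, 4 and 3 against 0, 3 and 0, and their part was not tested.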

How the results depend on the processing

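With few members per mouse, comparisons between genotypes depended on single barcodes and mice. Leaving out each mouse in turn moved the share of members (deficient minus sufficient) between -1.72 and 0.818 percentage points, the latter without LDHA-sufficient mouse 3. The mean hashtag log2 ratio turned to -0.087 with 2 or more rule genes, -0.13 with 4 or more, -0.0058 with the rule on thinned counts and -0.16 without Tyrobp in the rule (an alternative added after seeing the data), and ran from -0.10 to 0.14 without each mouse. B cell identity in members was 71.7 per 10000 with 2 or more rule genes.

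The count of genes that differ by genotype in members fell from 42 to 0 with 2 or more rule genes and with the hashtag call by ratio, and to 13 with DESeq2. With at least 2 cells per mouse (added after seeing the data) it was 0, also with DESeq2, and 0 to 0 without each mouse, and 15 with no filter on low counts (5, 3 and 9 without LDHA-sufficient mouse 1, 2 and 3, and 17, 31 and 11 without LDHA-deficient mouse 1, 2 and 3). Ldha in members was -0.72 with 2 or more rule genes, -0.28 with no filter and -0.77 with at least 2 cells and no filter (-0.96, -0.45, -0.66, -1.30, -0.99 and -0.063 without each mouse in the same order), and passed in none of these. Genes with another effect in members than in B cells were 1 with 2 or more rule genes, 0 with 4 or more, 0 without Tyrobp, 8 with the call by ratio, 7 in members low in B cell genes, 13 with all other barcodes as B cells, 0 with DESeq2 and 2 to 37 without each mouse. For Ldha this difference was -8.02 in members low in B cell genes (SE 6.16, 2 mice against 2) and 0.47 to 1.89 without each mouse. With no replicate block (the block is the mouse) it was 1.19, and 1 gene passed. The cause of these changes was not tested. A minimum of 10 cells, thinned counts, low B cell genes and leaving out any of the 3 mice could not be fitted in members alone, for want of mice. The heavy chain difference was below 0 in all alternatives run, between -66.3 and -26.0 points, and the iron list, which has no test, ran from 82.0 to 177.8 per 10000. The sign-flip test of the heavy chain difference missed 0.05 with all mice and cannot pass it with 5, so that test shows no stability.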
